A study of Mus musculus with 8 samples.

Results

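The 10 genes described here, measured in 8 RNA-seq libraries of mouse lens capsule, are 9 chemokine ligands (Cxcl1, Cxcl2, Cxcl5, Ccl2, Ccl7, Cxcl10, Cx3cl1, Cxcl12 and Cxcl14) and Ptgs2, the inducible prostaglandin synthase. They are 10 of the 54532 gene identifiers in the deposited count table, picked by symbol with earlier results of the same contrast in view. The difference between injured and sham capsules is therefore given for them as a description and not as a test. All animals were adult wild-type C57BL/6 mice of 6 to 8 weeks. In the 4 ASC libraries (the submitters' name for an injury model of fibrotic cataract) a 26-gauge needle pushed through the cornea had opened the centre of the anterior capsule. In the 4 sham libraries the cornea alone had been cut. Capsules of both groups were taken on day 7. The labels call each replicate biological, and the sources used here do not give the number of capsules in a library. Both groups carried a corneal wound, and no unoperated eye is among them.

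Chemokines are small secreted proteins that bind heparan sulphate and direct the movement of leukocytes through G-protein-coupled receptors. They fall into inducible ligands, which NF-kB, AP-1 and interferon signalling switch on within hours of injury or infection, and homeostatic ligands that tissues make continuously. Ptgs2 (cyclooxygenase-2) converts arachidonic acid to prostaglandin H2, from which prostaglandin E2 and other mediators of pain, vascular leak and fever are made. The lens has no blood supply of its own and is enclosed by its capsule, so leukocytes that reach it come through the aqueous humour or from neighbouring tissue.

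Library totals ran from 14420494 to 21141582 counts, and 1 CPM (the level used here, reads scaled to the library size with TMM factors) stood for 13.4 to 21.4 reads. The 6 lens epithelial markers (Foxe3, Pax6, Cdh1, Gja1, Mab21l1 and Prox1) were present in both groups, and summed to 1880 ± 102 CPM (sham) and 1760 ± 106 CPM (ASC; mean ± SD, n = 4 each, as in all that follows). Of these, Mab21l1, a lens transcription regulator, fell by 0.96 on the log2 scale (147 and 75.3 CPM, edgeR adjusted p = 0.00209). Pax6, the eye-field transcription factor, was at 455 ± 20.3 and 410 ± 20.7 CPM, lower in every ASC library but not past the test (edgeR adjusted p = 0.502). No label gives a batch. Sham 3 stood apart from the other sham libraries in Cxcl1, as given below, and it had the highest summed level of retinal markers of all 8 libraries (4160 CPM, against 999 to 2050 CPM in the other sham libraries). The part of retinal RNA in any result was not tested.

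The sequences just upstream of the genes that differed most are shown first, because the inducible chemokines are textbook targets of NF-kB. RefSeq windows of 250 bases that end at the annotated start site (build GRCm38.p6) were found for 7 of the 10 genes, and Ccl2, Ccl7 and Cxcl5 had no entry. Capitals mark matches to any of 6 motifs, searched on both strands and chosen after the windows had been seen: the NF-kB consensus, AP-1 (TGANTCA), the interferon-stimulated response element or ISRE (GAAA, any 2 bases and GAAA again), the E-box (CACGTG), C/EBP (TTGCGCAA) and the CArG box. The Cxcl1 window is chr5:90890995-90891244 on the plus strand, Cxcl2 chr5:90903649-90903898 on the plus strand, Cxcl10 chr5:92348890-92349139 on the minus strand and Ptgs2 chr1:150099781-150100030 on the plus strand.
Cxcl1: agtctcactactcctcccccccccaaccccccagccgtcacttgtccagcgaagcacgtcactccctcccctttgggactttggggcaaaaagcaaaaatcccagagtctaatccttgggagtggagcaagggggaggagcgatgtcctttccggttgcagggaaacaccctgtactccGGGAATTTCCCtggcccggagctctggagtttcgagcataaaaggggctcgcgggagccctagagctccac
Cxcl2: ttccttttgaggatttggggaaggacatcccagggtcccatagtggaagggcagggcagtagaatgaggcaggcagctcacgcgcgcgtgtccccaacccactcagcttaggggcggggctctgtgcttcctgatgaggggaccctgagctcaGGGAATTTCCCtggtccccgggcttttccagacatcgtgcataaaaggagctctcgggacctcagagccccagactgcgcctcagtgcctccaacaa
Cxcl10: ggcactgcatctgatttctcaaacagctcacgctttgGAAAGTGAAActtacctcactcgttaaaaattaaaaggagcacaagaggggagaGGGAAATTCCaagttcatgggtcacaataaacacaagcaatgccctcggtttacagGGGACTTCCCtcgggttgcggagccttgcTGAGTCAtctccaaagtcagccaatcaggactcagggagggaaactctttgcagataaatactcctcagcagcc
Ptgs2: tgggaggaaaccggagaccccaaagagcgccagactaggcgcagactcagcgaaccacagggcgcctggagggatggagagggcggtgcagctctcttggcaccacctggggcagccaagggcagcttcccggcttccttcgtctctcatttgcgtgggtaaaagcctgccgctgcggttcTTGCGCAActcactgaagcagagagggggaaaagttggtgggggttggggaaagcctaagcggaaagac

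Cxcl1 and Cxcl2 each hold an NF-kB match that reads on both strands with the strands' matches overlapping, from base -71 to -61 in Cxcl1 and from -97 to -87 in Cxcl2 (the base before the start site is -1). It lies in the longest run the 2 windows share, 14 bases (GGGAATTTCCCTGG). Cxcl10 holds 2 NF-kB matches, at -159 to -150 and -103 to -94, with an AP-1 match at -74 to -68 and an ISRE match at -213 to -204. Ptgs2 holds 1 C/EBP match at -69 to -62, which is its own reverse complement. The windows of Cx3cl1 and Cxcl12 held no match, and that of Cxcl14 held an ISRE match at -172 to -163. Of all 32851 upstream windows of this length, 3.9% hold the NF-kB consensus, 6.75% AP-1, 2.98% the ISRE, 6.02% the E-box, 0.164% the C/EBP letters and 1.47% the CArG box. A match describes letters and not binding, which was not measured here.

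**Figure D1:**
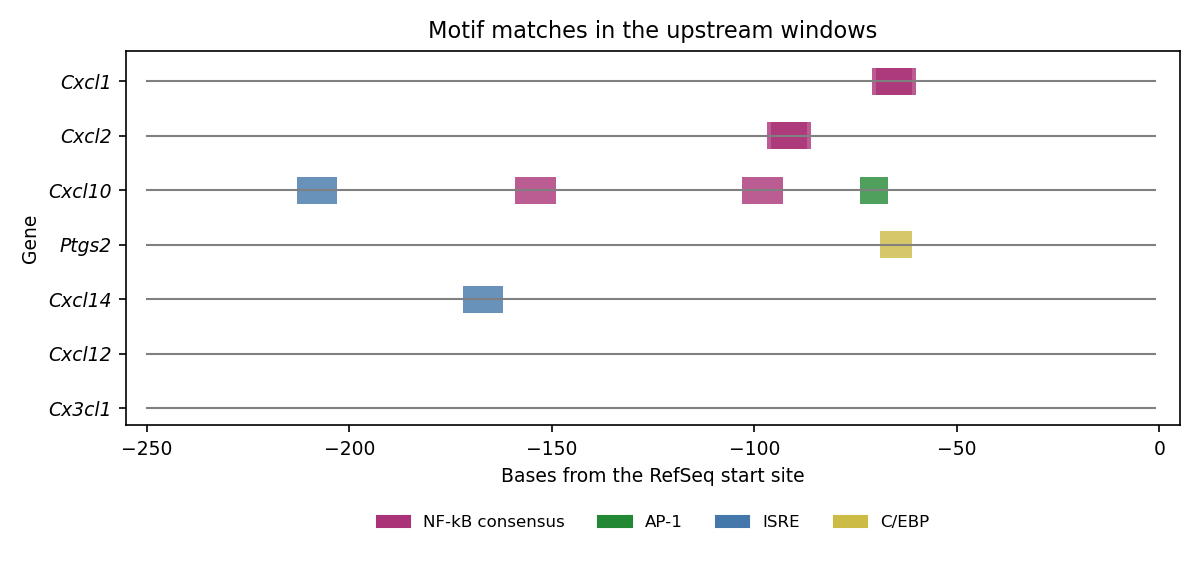
Positions of motif matches in the 250 bases before the RefSeq start site of 7 genes. Each grey line is 1 window, the x axis gives bases from the start site and colours give the motif. The NF-kB consensus lies in the windows of Cxcl1, Cxcl2 and Cxcl10, and Cxcl12 and Cx3cl1 have no match.

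The neutrophil-attracting ligands differed among themselves. Cxcl1 (ENSMUSG00000029380), a ligand of the receptor Cxcr2, had 3, 1, 26 and 0 reads in sham 1 to 4 and 603, 372, 349 and 197 reads in ASC 1 to 4. The groups did not overlap, and sham 3 alone held 26 of the 30 sham reads. As levels these were 0.362 ± 0.601 CPM (sham) and 23.0 ± 10.8 CPM (ASC), a log2 fold change of 5.88 (SE 0.85). Without sham 3 the log2 fold change was 8.21.

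Cxcl2 (ENSMUSG00000058427), the gene next to Cxcl1 on chromosome 5 and a ligand of the same receptor, had 3, 0, 0 and 0 reads in the sham libraries. The ASC libraries held 97, 52, 42 and 8 reads, all more than any sham library, with ASC 4 far below the others. The pooled CPM ratio was 77.0, with a counting interval of 26.0 to 377 (95%, exact binomial, counting error only). Because ASC 4 held so few reads, the filter on low counts left Cxcl2 out of the test. With no filter its log2 fold change was 6.03 (SE 0.60). Cxcl5 (ENSMUSG00000029371), a further Cxcr2 ligand a few genes along the same cluster, was near the counting floor in both groups. It had 2, 7, 0 and 0 reads in sham and 2, 1, 4 and 0 in ASC. Its groups overlapped and its counts were too low for the test. The counting interval of its ratio (0.286 to 2.72 around 0.903) again holds counting error only. With no filter the log2 fold change of Cxcl5 was -0.08, with a wider 95% confidence interval of -2.49 to 2.32. Differences within that interval could not be seen here. Cxcl3, which lies between them, had 0 sham and 3 ASC reads in all.

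The monocyte-attracting ligands Ccl2 and Ccl7 are neighbours on chromosome 11 and share the receptor Ccr2. Ccl2 (ENSMUSG00000035385) was already present after the sham operation, with 127, 458, 411 and 115 reads, and had 2256, 2049, 1513 and 1342 reads in ASC. Every ASC library lay above every sham library. In CPM the sham libraries stood at 5.95, 21.4, 19.9 and 8.56 and the ASC libraries at 144, 111, 87.5 and 90.6. Sham 2 and sham 3 were thus 2 to 4 times as high as sham 1 and sham 4, while the ASC libraries were closer together, with a coefficient of variation of 24% against 56.1% in sham. The log2 fold change was 2.95 (SE 0.46).

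Ccl7 (ENSMUSG00000035373) had 17, 43, 57 and 1 reads in sham and 554, 545, 211 and 140 in ASC, again without overlap. The ASC libraries split, ASC 1 and ASC 2 at 35.3 and 29.6 CPM and ASC 3 and ASC 4 at 12.2 and 9.45 CPM, and the log2 fold change was 3.87 (SE 0.78). For every 100 Ccl2 reads there were 24.6, 26.6, 13.9 and 10.4 Ccl7 reads in ASC 1 to 4 and 13.4, 9.39, 13.9 and 0.87 in sham 1 to 4. The pair therefore did not keep 1 ratio across libraries. The next genes on that side, the eosinophil chemokine Ccl11 and the monocyte chemokine Ccl12, had 0 and 13 sham reads and 3 and 33 ASC reads.

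Cxcl10 (ENSMUSG00000034855), an interferon-induced ligand of Cxcr3 that attracts activated T cells, had 3, 0, 6 and 0 reads in sham and 95, 37, 130 and 66 in ASC. All ASC libraries were above all sham libraries. Unlike Cxcl1, Cxcl2, Ccl2 and Ccl7, each highest in ASC 1, it was highest in ASC 3, at 7.52 CPM, and lowest in ASC 2, at 2.01 CPM. The log2 fold change was 5.35 (SE 0.72). Cxcl9 and Cxcl11, the other ligands of Cxcr3, had 1 and 0 sham reads and 3 and 0 ASC reads. The exons of Cxcl10 overlap those of Art3 on the opposite strand over 5.9% of its length, and Art3 had 12 sham and 28 ASC reads. The strand setting of the counting is not known.

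Cxcl14 and Cxcl12, usually called homeostatic, and Cx3cl1 overlapped between the groups, as Cxcl5 did. Cxcl14 (ENSMUSG00000021508), an epithelial chemokine, was the most abundant of the 10 genes per length in sham. It stood at 43.0, 45.2, 36.1 and 34.6 CPM in sham and 51.8, 54.2, 43.9 and 63.6 CPM in ASC. ASC 3 lay within the sham range and the log2 fold change was 0.43 (SE 0.13). Cx3cl1 (ENSMUSG00000031778), fractalkine, a membrane-anchored ligand of Cx3cr1, had 40.4, 32.7, 36.1 and 28.1 CPM in sham and 33.5, 32.3, 33.6 and 40.2 CPM in ASC. The ASC range lay inside the sham range, with a log2 fold change of 0.02 (95% confidence interval -0.24 to 0.28, which is -0.107 when scaled by library totals alone). Cxcl12 (ENSMUSG00000061353), the ligand of Cxcr4 and Ackr3, was scarce, with 9, 25, 50 and 14 reads in sham and 16, 62, 43 and 43 in ASC. In CPM, ASC 1 (1.02) lay below sham 2, sham 3 and sham 4, and the interval of its log2 fold change of 0.95 ran from -0.14 to 2.03.

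Ptgs2 (ENSMUSG00000032487) had 2, 1, 2 and 0 reads in sham and 19, 47, 32 and 18 in ASC. The groups did not overlap, but the highest ASC library, ASC 2, reached only 2.55 CPM. The log2 fold change was 4.6 (SE 0.58), and the pooled ratio of 26.9 had a counting interval of 11.2 to 84.5. Its ASC libraries had a different order from those of the Cxcr2 and Ccr2 ligands, since ASC 1, the highest for those 4 genes, shared the lowest Ptgs2 level with ASC 4 (1.21 CPM each).

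In edgeR's quasi-likelihood test over 15857 genes, 4 of the 8 genes of this set that had enough counts passed an adjusted p of 0.05 (Cxcl1, Cxcl10, Ccl2 and Ptgs2, all higher in ASC), where 1.02% of all tested genes passed in either direction and 0.631% passed as higher and 0.391% as lower. DESeq2 called 5, Ccl7 in addition, with 3.74% of all genes called (2.12% as higher), and limma-voom the same number as edgeR with 0.675% (0.41% as higher). With no filter on low counts edgeR called 6 of the 10, where Cxcl2 and Cxcl14 were added, with 2.26% of 31455 genes called. All 4 ASC libraries lay above all 4 sham libraries for 5 of the 8 tested genes and for Cxcl2, and for 3.39% of all tested genes. All ASC libraries lay below all sham libraries for 0 of the 10, against 5.67% of tested genes. Nothing is read from these shares, since the genes were chosen with this contrast known. When 1 library was left out at a time, Cxcl10 and Ptgs2 passed in all 8 fits, Cxcl1 passed only without sham 3, and Ccl2 only without sham 1. In those fits the share of all genes called was 0.49%, 0.346%, 0.673% and 0.413% without sham 1 to 4, and 0.622%, 1.41%, 0.445% and 0.414% without ASC 1 to 4. Adjusted p-values in edgeR's fits reached 0.103 for both Cxcl1 and Ccl2 in the remaining fits. Cxcl1, Cxcl10 and Ptgs2, with few sham reads, met the low-count filter only through their ASC libraries. Like the shares, the passes with 1 library left out are a description, and nothing is read from them.

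**Figure D2:**
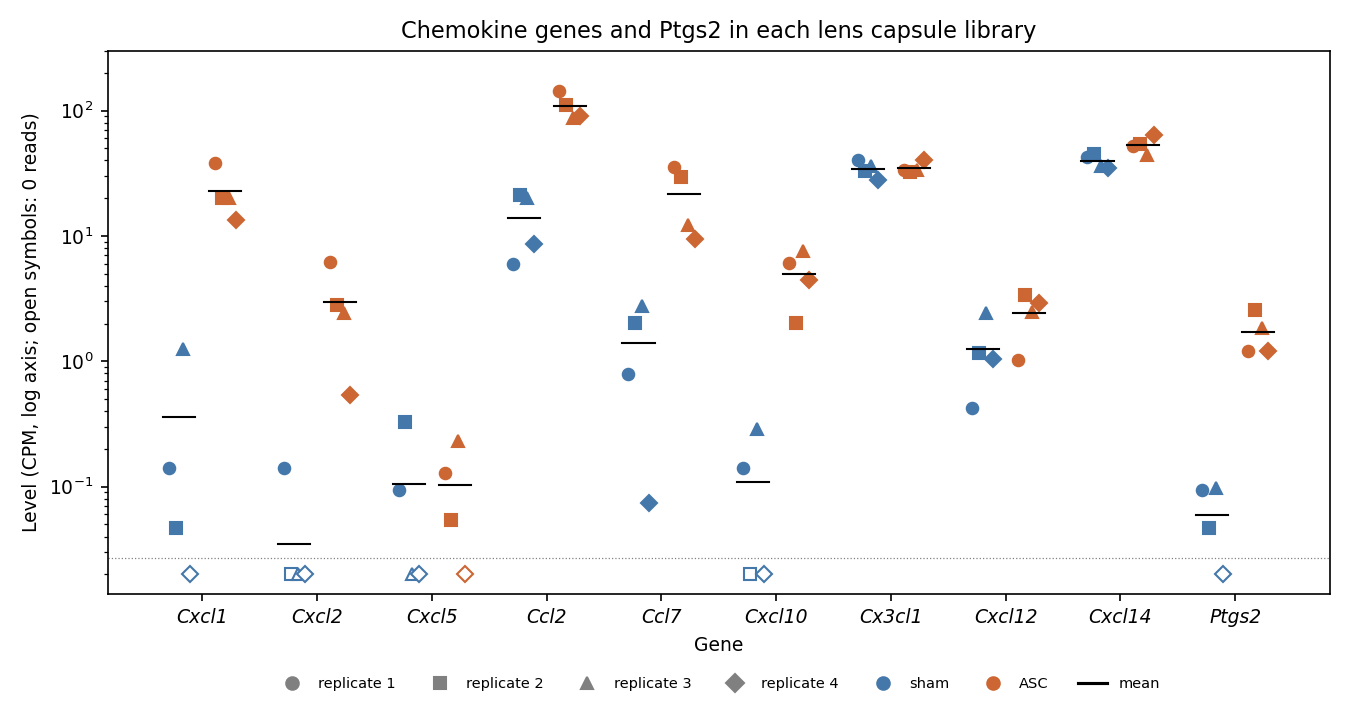
Level of each of the 10 genes in each library, in CPM on a log axis, with sham in blue and ASC in orange, 1 symbol per replicate and a line at the group mean. Open symbols below the dotted line are libraries with 0 reads. Cxcl1, Cxcl2, Ccl2, Ccl7, Cxcl10 and Ptgs2 do not overlap between groups, and Cxcl5, Cx3cl1, Cxcl12 and Cxcl14 do.

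Levels of different genes were compared as CPM per kilobase of exon, with lengths from GENCODE release M21. In sham the order began with Cxcl14 (21.7 ± 2.83), Ccl2 (12.3 ± 6.88) and Cx3cl1 (8.74 ± 1.33). The range of mean ± SD of Ccl2 overlapped both that of Cxcl14 and that of Cx3cl1. Ccl7 followed at 1.76 ± 1.50, and the other 6 genes were at 0.193 or less. In ASC the order was Ccl2 (95.2 ± 22.8), Cxcl14 (29.2 ± 4.45), Ccl7 (27.0 ± 15.9), Cxcl1 (12.3 ± 5.75), Cx3cl1 (8.87 ± 0.908), Cxcl10 (2.23 ± 1.05), Cxcl2 (1.45 ± 1.14), Ptgs2 (0.373 ± 0.139), Cxcl12 (0.299 ± 0.124) and Cxcl5 (0.0555 ± 0.0537). The ranges of mean ± SD overlapped for the neighbours Cxcl14 and Ccl7, Ccl7 and Cxcl1, and Cxcl1 and Cx3cl1. They also overlapped for Cxcl10 and Cxcl2, Cxcl2 and Ptgs2, and Ptgs2 and Cxcl12.

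Summed over all 38 chemokine ligands listed, the length-scaled level was 50.4, 67.2, 61.9 and 46.0 CPM per kb in sham and 242, 197, 155 and 158 in ASC. Its makeup differed too. Cxcl14 and Cx3cl1 together made up 54.9% ± 9.17 of it in sham and 21% ± 5.61 in ASC, while neither had a lower mean level in ASC. Ccl2 made up 20.7% ± 8.86 in sham, between 10.4% and 28.3%, and 50.4% ± 1.23 in ASC, between 49.5% and 52.1%. Ccl7 contributed 2.87% ± 2.31 and 13.6% ± 5.75, and Cxcl1 0.318% ± 0.515 and 6.34% ± 1.73. Ccl2 was thus the largest part in every ASC library, while the share of Ccl7 ranged from 7.49% to 18.7%.

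**Figure D3:**
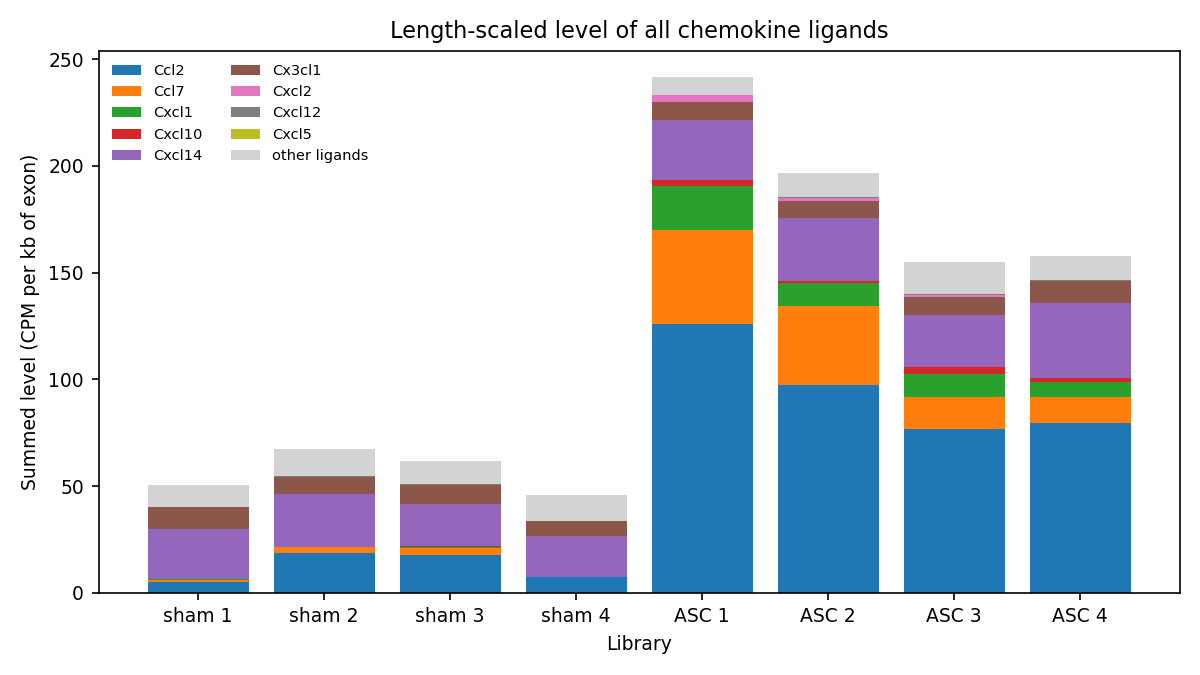
Summed length-scaled level of 38 chemokine ligands in each library (y axis, CPM per kilobase of exon), stacked by gene. Sham bars reach 46.0 to 67.2 and are mostly Cxcl14, Ccl2 and Cx3cl1. ASC bars reach 155 to 242, and Ccl2 fills 49.5% to 52.1% of each.

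Of 29 other chemokine ligands, 9 had no read in any library and 7 had enough for the test. In edgeR 0 of these passed, as in DESeq2 and limma-voom, and 1 had an unadjusted p under 0.05, a level that 14.7% of all tested genes reached (the background for such counts in the lists below too). Their median log2 fold change was -0.24, beside 0.008 for all tested genes. Ccl27a, a chemokine of skin-type epithelia, was at 14 ± 2.47 CPM (sham) and 12.9 ± 2.01 CPM (ASC; log2 fold change -0.11, edgeR adjusted p = 0.803). Ccl25, best known from thymus and gut, was at 9.05 ± 1.0 and 7.12 ± 0.947 CPM (-0.34, edgeR adjusted p = 0.339), and the myeloid chemokine Ccl6 at 2.01 ± 0.73 and 1.71 ± 0.484 CPM (-0.24, edgeR adjusted p = 0.795).

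Several receptors for the inducible ligands had almost no reads. Cxcr2 and Cxcr1 had 0 reads in all 8 libraries, which allows up to 0.14 to 0.223 CPM per library (3 reads, counting error only). Ccr2 had 0 sham and 2 ASC reads and Cxcr3 had 3 and 0. Ccr1, which also binds Ccl7, had 68 sham and 64 ASC reads (log2 fold change 0.1, edgeR adjusted p = 0.968). These receptors, and the next pair, were singled out after their values were seen, as partners of the ligands. Cxcr4 had 34 sham and 46 ASC reads (log2 fold change 0.66, edgeR adjusted p = 0.546) and Cx3cr1 was at 1.47 ± 0.62 and 2.09 ± 1.13 CPM (0.52, edgeR adjusted p = 0.639). The most abundant over all 8 libraries were atypical receptors, which take up chemokines without G-protein signalling. In ASC alone the mean of Cx3cr1 lay above that of Ackr4. Ackr3, the scavenger of Cxcl12, was at 10.7 ± 1.92 CPM (sham) and 13.8 ± 6.25 CPM (ASC; 0.36, edgeR adjusted p = 0.689), Ackr1 at 2.14 ± 1.14 and 2.69 ± 0.599 CPM (0.32, edgeR adjusted p = 0.745) and Ackr4 at 1.84 ± 0.548 and 1.99 ± 0.99 CPM (0.11, edgeR adjusted p = 0.927). Of 23 receptors, 8 were tested and 0 passed in edgeR, DESeq2 or limma-voom, with 0 also at an unadjusted p under 0.05 and a median of 0.21.

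Around Ptgs2, all 16 listed genes of prostanoid synthesis and transport could be tested. In edgeR 0 passed, with 2 at an unadjusted p under 0.05, while DESeq2 called 1 and limma-voom 0. The log2 fold change was above 0 for 15 of them (median 0.31). Ptgds, the lipocalin-type prostaglandin D synthase, was the most abundant at 582 ± 68.6 CPM (sham) and 893 ± 276 CPM (ASC; 0.62, edgeR adjusted p = 0.188). It was the gene DESeq2 called (adjusted p = 0.0366), and ASC 1 at 581 CPM lay among the sham libraries. The aldose reductase Akr1b3 (164 ± 24.8 and 170 ± 30.2 CPM, 0.05, edgeR adjusted p = 0.916) and Prxl2b, a prostaglandin F synthase (54.7 ± 11 and 71.1 ± 14.5 CPM, 0.38, edgeR adjusted p = 0.351), followed. Pla2g4a, which frees the arachidonic acid that Ptgs2 uses and is its neighbour on chromosome 1, was at 35.1 ± 5.09 and 37.0 ± 6.76 CPM (0.07). The constitutive synthase Ptgs1 was at 0.847 ± 0.618 and 1.19 ± 0.27 CPM (0.49), and Ptges, the inducible prostaglandin E synthase, at 1.39 ± 0.551 and 2.82 ± 1.51 CPM (1.01, edgeR adjusted p = 0.30). These 3 were named after their values were seen. Of 9 prostanoid receptors, 3 were tested and 0 passed in edgeR, DESeq2 or limma-voom, with 0 also at an unadjusted p under 0.05. The thromboxane receptor Tbxa2r stood at 2.20 ± 0.542 and 1.81 ± 0.343 CPM (-0.28), Ptgfr at 1.41 ± 0.487 and 1.72 ± 0.503 CPM (0.30) and Ptger1 at 1.30 ± 0.443 and 0.897 ± 0.203 CPM (-0.52).

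The cytokines that typically induce these genes were scarce. Il6 had 4 reads in each group, Tnf 5 sham and 10 ASC reads, and Ifng, Ifnb1 and Il17a had 0 reads in every library. Il1b was at 2.57 ± 0.856 CPM (sham) and 2.31 ± 0.21 CPM (ASC; -0.14, edgeR adjusted p = 0.867). These cytokines were named after their values were seen. Of the 20 listed cytokines and receptors, 13 were tested. In edgeR 0 passed, with 2 at an unadjusted p under 0.05, while DESeq2 called 1 and limma-voom 0 (median -0.03). The most abundant was the interferon receptor chain Ifnar1, at 42.4 ± 2.69 and 37.0 ± 1.18 CPM (-0.20, edgeR adjusted p = 0.299). Tlr2, a receptor for bacterial lipopeptides, was the gene DESeq2 called (adjusted p = 0.0127). It had 14.9, 19.3, 15.8 and 16.1 CPM in sham and 44.9, 22.9, 23.2 and 24.8 CPM in ASC, without overlap and highest in ASC 1 (0.81, edgeR adjusted p = 0.127). Tnfrsf1a, the main receptor for tumour necrosis factor, stood at 19.8 ± 3.30 and 23.4 ± 5.41 CPM (0.24).

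**Figure D4:**
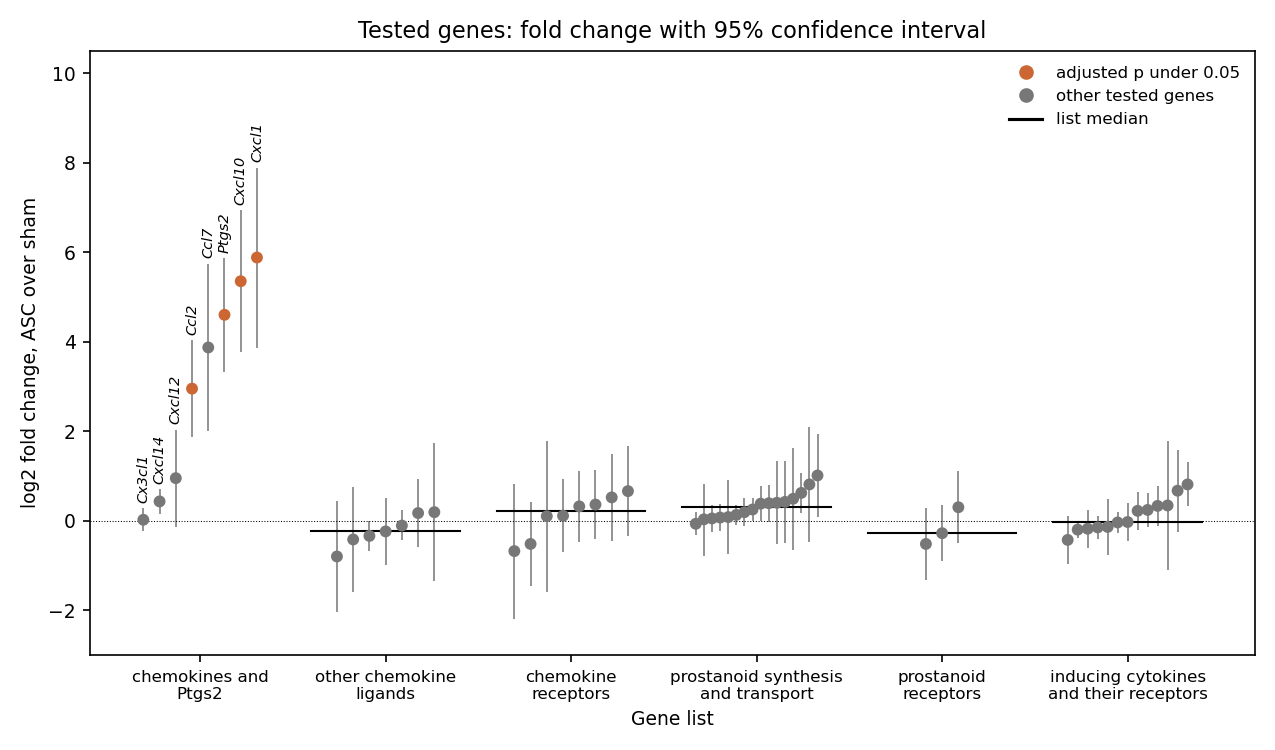
Log2 fold change of ASC over sham (y axis) for each tested gene, with its 95% confidence interval, in the chemokine and Ptgs2 set and 5 lists around it. Orange marks an adjusted p under 0.05 and black lines are list medians. The called genes all stand in the first column, whose genes were chosen with this contrast known, and the medians of the other lists lie between -0.28 and 0.31.

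In bulk capsules more cells of a type and more RNA per cell cannot be told apart, so marker levels of other cells are given beside the chemokines. The 18 macrophage and leukocyte markers all had reads, and their sum was 14.1 to 61.1 CPM in sham and 26.1 to 93.3 CPM in ASC (exact permutation p = 0.20, adjusted p = 0.367 over 11 lists). Of the 15 tested, 13 had a log2 fold change above 0, with a median of 0.87 beside 0.008 for all tested genes. In edgeR, DESeq2 and limma-voom 0 of them passed. ASC 1, which had the highest Cxcl1, Cxcl2, Ccl2 and Ccl7, had the lowest sum of the ASC libraries (26.1 CPM), below sham 2, sham 3 and sham 4. Among the sham libraries the order of this sum (61.1, 59.5, 41.3 and 14.1 CPM in sham 2, 3, 4 and 1) was the order of Ccl2. The part of these cells in the result was not tested. Ptgs2, at its highest in ASC 2, was highest where this sum was highest (93.3 CPM).

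Of the 12 neutrophil markers, Ly6g and Elane had 0 reads in all libraries, and S100a8 and S100a9, among the most abundant neutrophil transcripts, had 0 and 3 sham reads and 4 and 15 ASC reads. Their summed level did not overlap between groups, at 1.27 to 2.39 CPM in sham and 2.88 to 5.33 CPM in ASC. The exact permutation p was 0.0286, which is as low as 70 assignments go (adjusted p = 0.157). A single gene, Ltf (lactoferrin, which glands also make), made up 2.49 of the 3.57 CPM in ASC 1. It made up 0.217 of the 2.88 CPM in ASC 2 and 1.75 of the 5.33 CPM in ASC 4. Csf3r and Mmp9 had 22 and 44 sham reads and 53 and 66 ASC reads, while Mpo and Camp had 9 and 15 sham reads and 6 and 7 ASC reads. The part of neutrophils in the result was not tested. The maximum of the sum was in ASC 4, where Cxcl1 and Cxcl2 were lowest. The 12 lymphocyte markers summed to 1.49 to 2.16 CPM in sham and 1.79 to 3.64 CPM in ASC (exact permutation p = 0.0857, adjusted p = 0.236).

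Red cell markers (7 genes, mostly the globins) did not overlap either, at 40.1 to 62.8 CPM in sham and 73.9 to 370 CPM in ASC (exact permutation p = 0.0286, adjusted p = 0.157). Their part in the chemokine result was not tested. ASC 3, at 73.9 CPM the nearest to sham, had the lowest Ccl2 of the ASC libraries (87.5 CPM) and the highest Cxcl10, with 20.2 CPM of Cxcl1. ASC 1, at 308 CPM, was highest for Cxcl1, Cxcl2, Ccl2 and Ccl7. ASC 4, at 370 CPM, was the lowest ASC library for Cxcl1, Cxcl2 and Ccl7. Pigment cell markers were at 89.2 to 255 CPM in sham and 181 to 656 CPM in ASC (exact permutation p = 0.0571, adjusted p = 0.209). DESeq2 called 4 of the 7 pigment cell markers and 4 of the 5 tested red cell markers, where it called 3.74% of all genes. The log2 fold changes of these were above 0, and edgeR and limma-voom called 0 in either list. The part of pigment cells was not tested. The 8 corneal epithelial markers summed to 395 to 615 and 365 to 967 CPM (exact permutation p = 0.571, adjusted p = 0.628), mostly Aldh3a1, but the keratins Krt5, Krt12 and Krt6a rose (edgeR adjusted p = 0.0387, 0.0395 and 0.0426), with a log2 fold change of 3.52 for Krt5. Of the 7 tested, edgeR thus called 3, where 1.02% of all genes passed. DESeq2 called these 3 and Krt13 (adjusted p = 0.0172), where it called 3.74% of all genes. In limma-voom 0 of the 7 passed (adjusted p = 0.094, 0.0603 and 0.0572 for Krt5, Krt12 and Krt6a). Their part in the chemokine result was not tested. Fibroblast, endothelial, retinal and lens fibre lists had exact permutation p-values of 0.314 or more. Sums can hide single genes: Pdgfra made up most of the fibroblast sum, in which the matrix gene Dcn was at 2.72 ± 2.19 and 13.8 ± 11.6 CPM without overlap (edgeR adjusted p = 0.235). Cryba1 made up most of the fibre sum, in which DESeq2 called Bfsp1 and Dnase2b higher (adjusted p = 0.0213 and 0.0157) and edgeR did not (0.172 and 0.216). Pax6, Mpo, Camp, Csf3r, Mmp9, Ltf, Krt13, Dcn, Bfsp1 and Dnase2b were named after their values were seen.

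**Figure D5:**
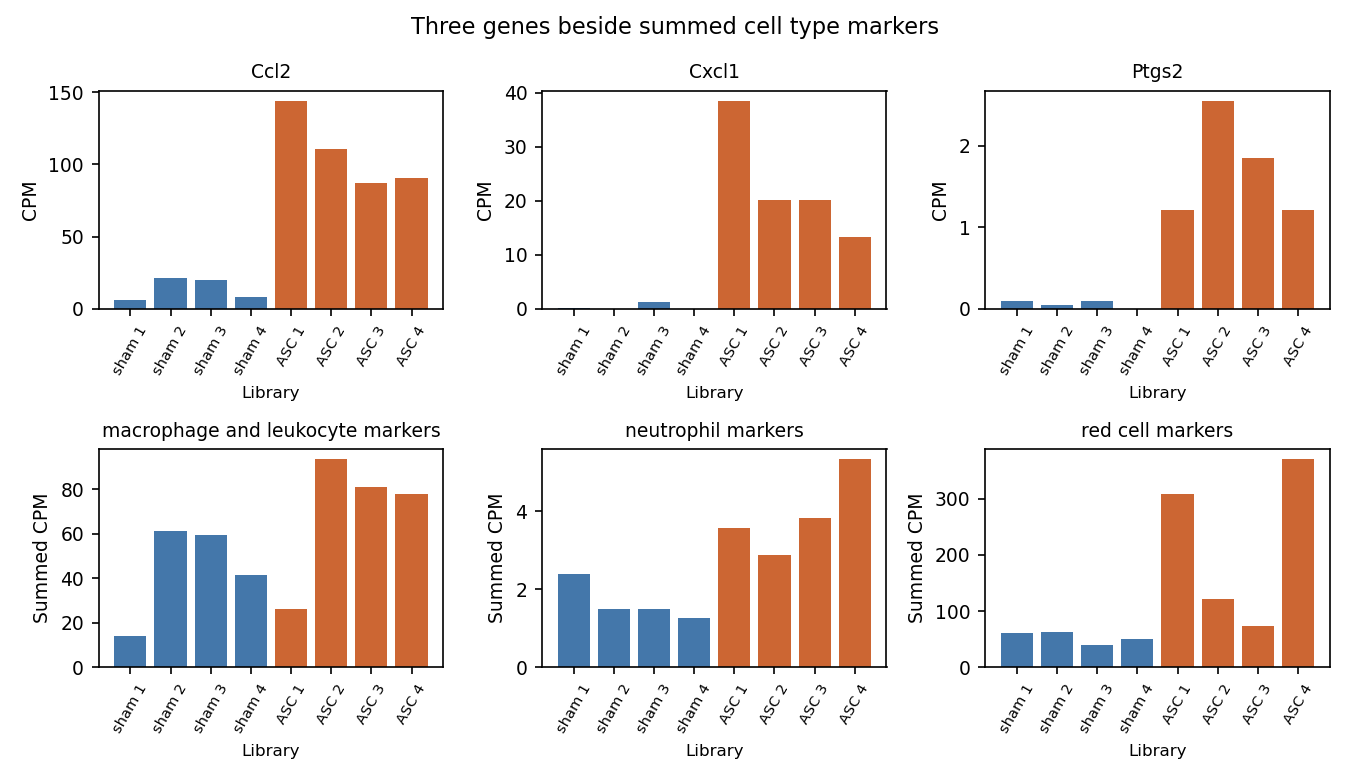
Ccl2, Cxcl1 and Ptgs2 (upper row, CPM) beside the summed macrophage and leukocyte, neutrophil and red cell markers (lower row, summed CPM) in each library, with sham in blue and ASC in orange. ASC 1 is highest for Ccl2 and Cxcl1 and lowest of the ASC libraries for macrophage and leukocyte markers, while the sham libraries have the same order for Ccl2 and for these markers.

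The genes whose levels most resembled these over the 8 libraries were listed by the correlation of log2 CPM among 9175 or 9176 genes of average log2 CPM of at least 3. All correlations here are descriptions, carry the group difference and share the libraries' depth. Cxcl1 was closest to the stress transcription factor Atf3 and the mRNA decay factor Zfp36 (r = 0.985 each), followed by Ccn1 (0.983), Egr1 (0.98) and Gdf15 (0.978). With each group centred on its own mean these were 0.756 to 0.873, but Cxcl1 in sham rested on 3, 1, 26 and 0 reads. Here and below, the genes were picked by an r that holds the same deviations as the centred one. Ccl2 was closest to the chaperone Calr (0.988), whose own log2 fold change was 0.42, then the transcription factor Gli3 (0.977), the kinase Pim1 (0.975), Ccn1 (0.959) and the NF-kB inhibitor Nfkbia (0.957), with centred values of 0.572 to 0.91. Ptgs2 was closest to Ccn1 (0.969), Csrnp1, Klf4, Jun and Gem (0.959 to 0.963), and with groups centred these were -0.233 to 0.354.

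Within groups the 8 tested genes were only partly alike. After centring, Ccl2 and Ccl7 correlated at 0.72, Cxcl1 and Cxcl10 at 0.71 and Cxcl1 and Ccl7 at 0.70, over 8 libraries. In sham, however, Cxcl1 rested on 0 to 26 reads, Cxcl10 on 0 to 6 and Ptgs2 on 0 to 2. Counting error, and sham 3, which was the highest sham library for these genes, therefore enter their centred values. Ccl2 stood at 0.01 with Cxcl10 and at 0.03 with Ptgs2, while Cx3cl1 and Cxcl14 were at 0.56 with each other and at -0.22 and 0.05 with Ccl2.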

How the data were processed

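RNA of 4 sham and 4 ASC lens capsule libraries was measured by poly-A RNA-seq. The authors deposited 1 table of whole-number read counts per gene, not normalized, with 54532 identifiers. The submitters' processing notes name HISAT2 2.0.5, featureCounts 1.5.0-p3, fastp and CASAVA, with no roles. The sources used here do not give the genome build, annotation, strand setting or treatment of multi-mapping reads, so coordinates belong to the RefSeq windows alone. Symbols matched 54409 identifiers.

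Counts were fitted with edgeR 4.0.16 in R 4.3.3: filterByExpr by group (15857 genes), TMM scaling, robust quasi-likelihood test between ASC and sham without covariates, Benjamini-Hochberg adjustment over all genes, threshold 0.05. The SE is the log2 fold change divided by the square root of F. Log2 CPM used a prior count of 2. Values are mean ± SD over 4 libraries, and p-values measure the spread between these libraries. Marker sums were compared by two-sided exact permutation. The genes, lists, tests and naming rule were chosen with earlier results of these data known. By that rule the text names the 10 genes, list genes past the threshold or else the 3 most abundant, and the 5 genes most like Cxcl1, Ccl2 and Ptgs2, and others are said to be named after their values were seen. The fit was tested on simulated counts drawn from its own dispersion estimates, with smaller changes than those of Cxcl1, Cxcl10 and Ptgs2. Nothing is read from that test for these genes. Alternatives were DESeq2 1.42.0, limma-voom (limma 3.58.1), other scalings and filters, non-robust estimation, the replicate number as a block, and each library left out.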

Additional observations from a re-analysis of the deposited data

Results flagged for a closer look

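Among 42 groups of 4 libraries (the 10 genes and 11 marker sums in sham and in ASC), 3 held a library far from its group by Dixon's ratio. For normally spread values chance alone would give about 2.1. That figure does not hold for groups with reads near 0, so nothing is read from the comparison. Cxcl1 in sham 3 was at 1.26 CPM, 26 reads against 0 to 3 in the other sham libraries. Cxcl2 in sham 1 was at 0.14 CPM, which is 3 reads against 0. Cx3cl1 in ASC 4 was at 40.2 CPM against 32.3 to 33.6 CPM in the other ASC libraries, inside the sham range of 28.1 to 40.4 CPM.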

How the results depend on the processing

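Of 136 fold changes of the 8 tested genes recomputed under 17 alternatives, 111 kept their direction and side of the threshold, 17 lost the call and 3 gained it. The other 5 were all Cx3cl1, never called, whose 0.019 turned to -0.107 with library totals alone, 0 with upper quartile scaling, and -0.012, -0.064 and -0.058 without sham 2, sham 4 and ASC 4 (up to 0.106 with 1 library left out). The ratio of summed endothelial markers also changed side of 1, to 0.979 with library totals alone and 0.975, 0.938, 0.951 and 0.998 without sham 2, sham 4, ASC 2 and ASC 4 (up to 1.3 with 1 library left out). The count of all genes past the threshold went from 162 to 593 with DESeq2, 107 with limma-voom and 712 with no low-count filter, and to between 56 and 228 with 1 library left out (79, 56 and 67 without sham 1, 2 and 4, and 101, 72 and 67 without ASC 1, 3 and 4). Of the chemokine and Ptgs2 set, 4 passed, against 2 with the replicate block (Cxcl1 and Ccl2 lost), 3 with library totals alone (Ccl2 lost), 5 with robust estimation off (Ccl7 gained) and 2 to 3 with 1 library left out. Synthesis genes went from 0 to 1 with DESeq2 and 2 with no filter, and inducing cytokines and receptors from 0 to 1 with each. The causes were not tested. Scaling by library totals moved the median of all genes from 0.008 to -0.116 and the split of calls from 100 higher of 162 to 75 of 145. Deviations of same-numbered libraries from their group means correlated at -0.09 to 0.217. For replicates 1 and 3 (0.217 and 0.214) the same-numbered ASC library was the best match of the sham library, and for replicates 2 and 4 it was not. Whether the replicate numbers pair the libraries is therefore not settled. The block gave 169 genes in all, 130 of them higher. With 70 assignments and 11 lists the marker sums could hardly pass an adjusted p of 0.05, so nothing is read from their stability. Cxcl5, at 9 and 7 reads in all, was too scarce for any but a large difference to be seen.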
